A study of Homo sapiens with 6 samples.

Results

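The S100 proteins and the annexins are 2 families of calcium-binding proteins that work together at membranes. The genes described here are the protein-coding genes of the deposited count table whose symbol is that of an S100 gene (S100A with a number, S100B, S100G, S100P or S100Z) or of an annexin (ANXA with a number). This rule gave 31 of the 58735 genes in the table, 19 S100 genes and 12 annexins. They were measured by RNA-seq in SY5Y cells, a human neuroblastoma line grown in DMEM/F12 medium with 10% serum, in 3 libraries with DLX5 overexpression and 3 control libraries. DLX5 is a homeobox transcription factor, and the series asks how it bears on MYCN and on neuroblastoma. How DLX5 was introduced, what the control cells carry and whether either line is a single clone are not stated in the sources used here.

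S100 proteins are small EF-hand proteins, which hold calcium in a helix-loop-helix fold and mostly act as dimers that grip a partner once calcium is bound. Annexins have a conserved core of repeats that binds acidic phospholipids when calcium rises, and they take part in membrane repair, vesicle fusion and the anchoring of the cortical cytoskeleton. Several S100 proteins bind the amino-terminal tail of a particular annexin, and the complex of S100A10 with annexin A2 is the best studied of these pairs.

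Total counts per library ran from 14644077 to 16886026. DLX5 itself measured 1609 ± 59.1 CPM with overexpression and 12.8 ± 0.804 CPM without (SD, n = 3), so that each library matched its label. CPM are read counts scaled to a common, normalised library size. Defining markers of adrenergic neuroblastoma, among them HAND2 and DBH, were present at 1 CPM or more in control in 8 of 8 cases, and all 8 were lower with DLX5. Nothing in the labels states that replicates were separate cultures, and p-values then measure the spread between these libraries only. No batch is labelled.

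The S100 and annexin families were mostly higher with DLX5. Of the 31 members, 20 had enough reads to be tested. Of these, 16 rose, 1 fell and 3 did not pass (edgeR quasi-likelihood test, Benjamini-Hochberg adjusted p under 0.05 over all 17269 genes tested). Over all genes tested, 58.6% passed in either direction, 29.8% higher and 28.8% lower, and over the 13823 protein-coding genes tested 32.6% were higher and 31.3% lower. The rises were large as well: 12 members rose at least 2-fold, as did 11.3% of all genes tested, and 7 rose at least 8-fold, as did 2.71% of all genes tested. The median log2 fold change was 1.99 over the 10 tested S100 genes, 1.05 over the 10 tested annexins and -0.002 over all genes tested. The libraries of the groups did not overlap in 19 of the 20 members, as in 62.5% of all genes tested, and the DLX5 libraries lay above in 18, as in 31.7%. The filter on low counts bears on these numbers: 5 members (ANXA1, ANXA8, S100A1, S100A2 and S100A3) met it through the DLX5 libraries only and S100B through the controls only. Of the 14 members that met it in each group, 12 rose, 0 fell and 2 did not pass, 8 rose at least 2-fold and 4 at least 8-fold, and the median log2 fold change was 1.28. The 14 members with a mean of at least 2 log2 CPM over all 6 libraries gave the same split of 12, 0 and 2, beside 31.6% higher and 33.8% lower among the 12746 genes at that level. That mean takes in the DLX5 libraries, so a rise helps a member to reach it. ANXA1 is among these 14, and ANXA1, ANXA3 and S100A10 held 1.15, 1.41 and 2.14 CPM in control. In RNA of whole cultures, more cells that express a gene and more RNA per cell cannot be told apart.

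**Figure D1:**
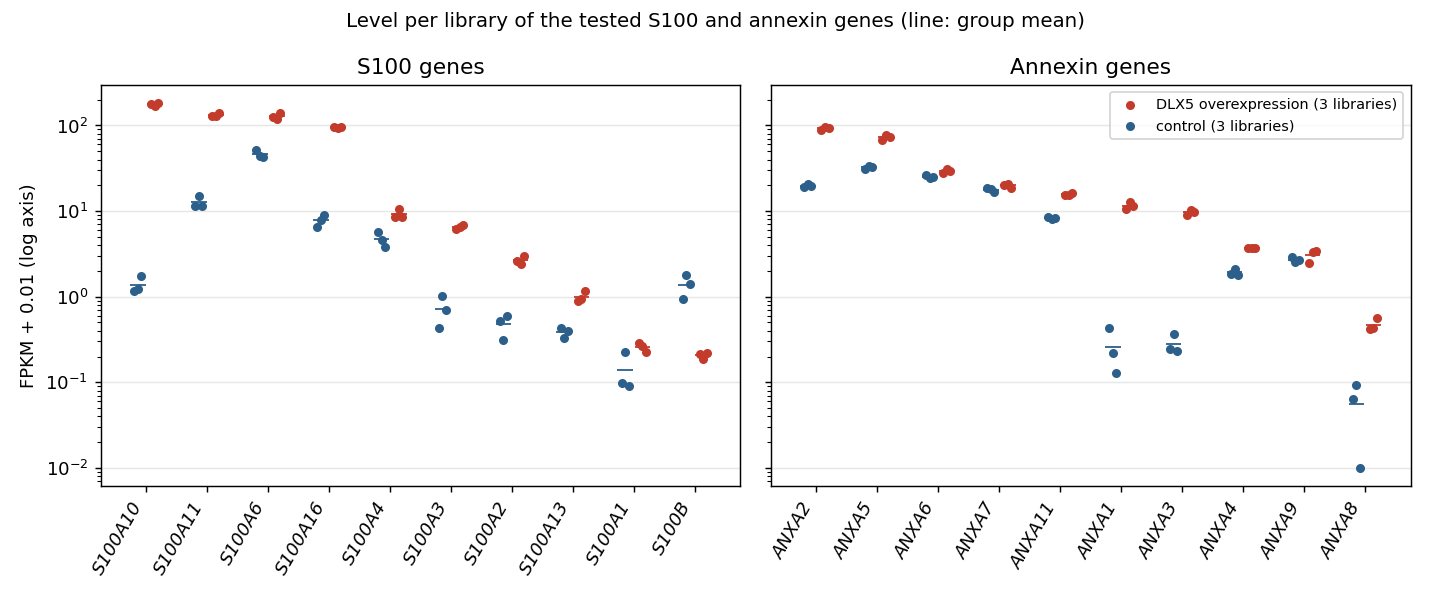
FPKM of each library (log axis, with 0.01 added) for the 10 tested S100 genes and the 10 tested annexins, red for DLX5 overexpression and blue for control, with a line at each group mean. S100A10 moved from 1.37 to 177 FPKM and passed S100A6 as the most abundant S100 message. For each of ANXA6, ANXA7 and ANXA9, the DLX5 and control levels of the gene lay close together.

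S100A10, also called p11, is the S100 protein that has lost calcium binding and stays locked in its active shape. Its gene (ENSG00000197747, chromosome 1, 151982915 to 151994390, minus strand, GRCh38) held 277, 264 and 284 CPM in the 3 DLX5 libraries and 1.81, 1.92 and 2.68 CPM in the controls. The groups were far apart, and no control library came near any DLX5 library. The log2 fold change was 7.0 ± 0.10 (± is the standard error after a fold change throughout), or 128-fold (edgeR, adjusted p = 7.56e-27). Its rise ranked 21 among the 12746 genes with a mean of at least 2 log2 CPM.

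ANXA2 (ENSG00000182718, chromosome 15, 60347134 to 60402883, minus strand) encodes annexin A2, the partner that S100A10 joins in a heterotetramer at the plasma membrane, where the complex binds plasminogen and its activator. It held 794, 851 and 838 CPM with DLX5 and 172, 184 and 174 CPM in control. The groups did not overlap, and ANXA2 was 4.69-fold higher (log2 fold change 2.23 ± 0.06, edgeR adjusted p = 3.38e-21). ANXA2 was already abundant in control, and the partners changed by very different factors. Per kilobase of the gene length in the file, the FPKM of S100A10 over that of ANXA2 was 2.0, 1.78 and 1.94 in the DLX5 libraries and 0.0603, 0.0597 and 0.0881 in the controls. The size of this ratio depends on the length used, and its change between groups does not: with the median length of the annotated coding transcripts it was 0.245 ± 0.0147 with DLX5 and 0.00893 ± 0.00209 in control (SD, n = 3).

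**Figure D2:**
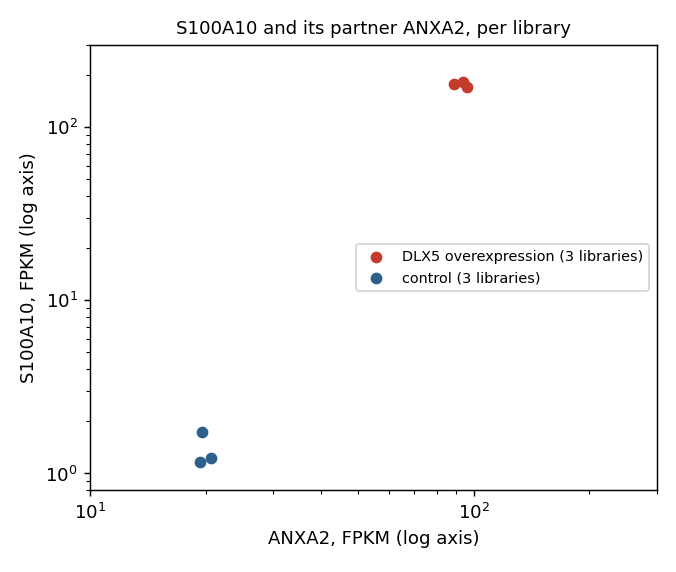
FPKM of S100A10 against FPKM of ANXA2 in each library (both axes log), red for DLX5 overexpression and blue for control. The 3 control libraries sit together at 1.37 FPKM of S100A10 and 19.9 FPKM of ANXA2 on average, and the 3 DLX5 libraries at 177 and 93.0 FPKM.

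ANXA2 has a processed pseudogene, ANXA2P2, that is 98.4% identical over 1020 bases. ANXA2P2 stood at 49.8 ± 2.37 CPM with DLX5 and 10.6 ± 0.409 CPM in control (SD, n = 3), with a log2 fold change of 2.22 ± 0.09, nearly that of ANXA2. Reads of the gene and of its copy may have been exchanged, and this was not measured. AHNAK, a giant scaffold protein that binds the S100A10 and annexin A2 complex, went from 388 ± 40.8 to 1347 ± 46.2 CPM. DLC1, a tumour suppressor that also binds S100A10, went from 10.2 ± 1.08 to 69.9 ± 1.75 CPM.

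S100A11 (chromosome 1, 152032506 to 152047907, minus strand) lies next to S100A10 and encodes calgizzarin, a partner of annexin A1. It held 89.3, 87.4 and 96.8 CPM with DLX5 and 7.84, 10.4 and 7.74 CPM in control, a 10.5-fold rise (log2 fold change 3.39 ± 0.10, edgeR adjusted p = 6.67e-21). ANXA1 (chromosome 9, 73151757 to 73170393, plus strand), known for damping inflammation, held 48.1, 58.4 and 52.8 CPM with DLX5. Its controls held 1.94, 0.959 and 0.548 CPM, which are only 54 counts in all, against 2573 with DLX5. Both members of this pair were therefore higher, each with groups that did not overlap. ANXA1 was 46.8-fold higher (log2 fold change 5.55 ± 0.17, edgeR adjusted p = 4.96e-20), and the ratio of scaled counts was 47.1 with a 95% binomial interval of 36.0 to 62.9. Such intervals cover counting error only.

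S100A16 (chromosome 1, 153606886 to 153613145, minus strand), a broadly expressed S100 protein, had the second largest rise among the S100 genes. Its level was 163.5, 159.7 and 164.7 CPM in the DLX5 libraries against 11.1, 13.6 and 15.4 CPM in control. It was 12.1-fold higher, a log2 fold change of 3.60 ± 0.08 (edgeR, adjusted p = 1.27e-22). S100A6 (chromosome 1, 153534599 to 153536244, minus strand), or calcyclin, was the most abundant S100 message of the control cells. It held 122, 116 and 138 CPM with DLX5 and 51.0, 43.2 and 41.4 CPM in control, without overlap, and rose 2.78-fold (log2 fold change 1.48 ± 0.08, edgeR adjusted p = 6.16e-15).

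S100A4 and S100A3 lie one within the other. S100A4, a binder of non-muscle myosin IIA, held 8.84, 10.8 and 8.77 CPM with DLX5 and 5.83, 4.80 and 3.96 CPM in control, a log2 fold change of 0.96 ± 0.16 (edgeR, adjusted p = 8.93e-06). S100A3, best known from the hair cuticle, held 6.02, 6.26 and 6.70 CPM with DLX5 and 0.402, 0.959 and 0.670 CPM in control, a log2 fold change of 3.19 ± 0.25. The genes share a strand and overlap in span but share 0 exon bases in the annotation. S100A2, a mainly epithelial S100 protein of the nucleus, rose from 0.732 ± 0.226 to 4.17 ± 0.477 CPM (SD, n = 3; log2 fold change 2.51 ± 0.27).

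S100A13, which assists the release of FGF1 from cells, held 1.99, 2.07 and 2.62 CPM with DLX5 and 0.938, 0.719 and 0.853 CPM in control (log2 fold change 1.41 ± 0.30, edgeR adjusted p = 2.89e-04). S100A1, the S100 protein of heart muscle, did not pass. Its DLX5 libraries held 0.842, 0.775 and 0.670 CPM and its controls 0.268, 0.659 and 0.244 CPM (log2 fold change 0.94 ± 0.46, edgeR adjusted p = 0.0844). It passed without control replicate 2, at a log2 fold change of 1.54 and adjusted p = 0.0244, and on log2(FPKM + 0.1) values, at adjusted p = 0.0456. S100A1 and S100A13 lie on opposite strands and share 235 exon bases, and whether reads were counted by strand is not stated in the sources used here.

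S100B was the member that fell. It encodes an S100 protein of astrocytes and Schwann cells that is also released from them, and it lies on chromosome 21 (46598962 to 46605208, minus strand), away from the S100 genes of chromosome 1. It held 0.301, 0.258 and 0.304 CPM with DLX5 and 1.34, 2.58 and 2.01 CPM in control, from 14 and 96 counts. The groups did not overlap, and the ratio of scaled counts was 0.144 with a 95% binomial interval of 0.0760 to 0.254 (log2 fold change -2.75 ± 0.40, edgeR adjusted p = 1.62e-06).

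The remaining 9 S100 genes could not be tested. S100A7, S100A8, S100A9 and S100A12, the S100 proteins of inflamed skin and of neutrophils and monocytes, had 0 counts in every library, which allows up to 0.0618 CPM over the DLX5 group and 0.0625 CPM over the controls (3 counts). S100A5, S100A14, S100G, S100P and S100Z had 6, 1, 1, 5 and 1 counts over all 6 libraries. S100A5 took its 6 counts from the DLX5 libraries only, and no fold is given for so few.

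The composition of the S100 message changed with its amount. Summed over the 19 S100 genes, FPKM were 546.5, 531.5 and 579.5 with DLX5 and 79.3, 76.7 and 71.5 in control. S100A6 made up 60.9% ± 4.33 of this sum in control and 23.2% ± 0.980 with DLX5, and S100A10 made up 1.83% ± 0.511 and 32.0% ± 0.544 (SD, n = 3). S100A11 held 16.7% ± 2.74 and 24.0% ± 0.257, and S100A16 10.4% ± 2.20 and 17.2% ± 0.564, in the same order. For each of these 4 genes the shares of the groups did not overlap. S100A6 had the smaller share with DLX5 while its own level rose. With the median transcript length, S100A6 made up 59.9% ± 4.09 and 22.3% ± 0.990, and S100A10 2.11% ± 0.581 and 36.1% ± 0.548.

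**Figure D3:**
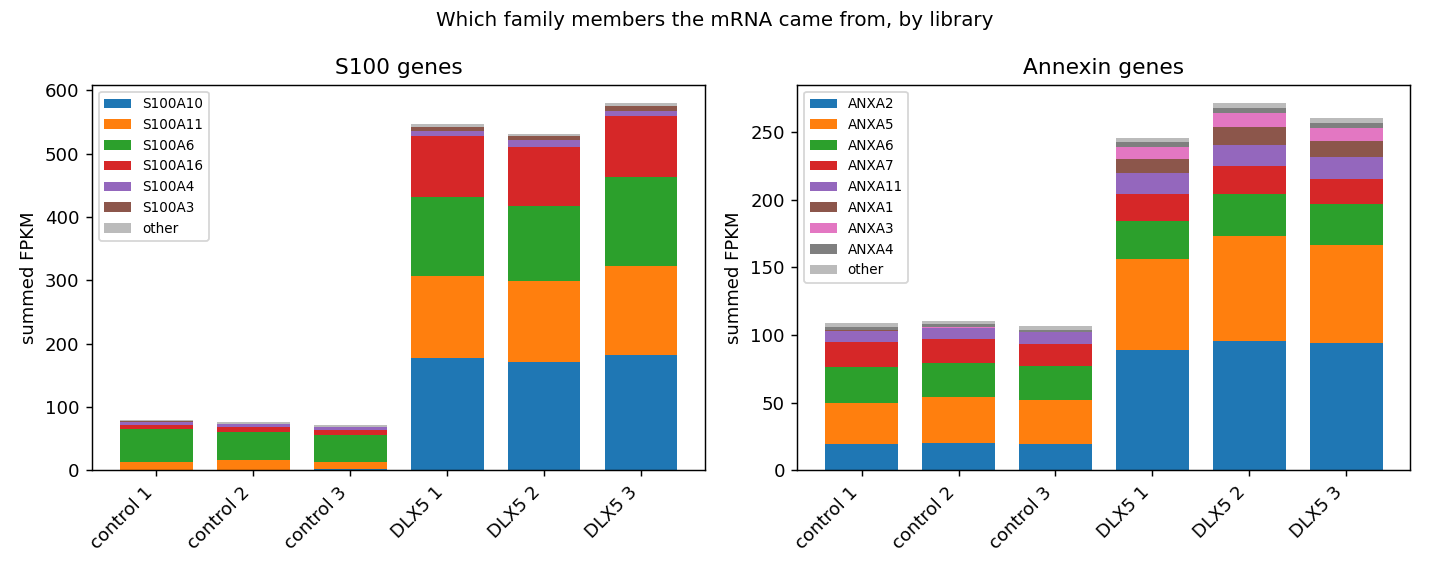
FPKM summed over the S100 genes (left) and the annexins (right) in each library, with each bar split by gene and grey for the remaining members. The S100 sums lie between 71.5 and 79.3 in the controls and between 531.5 and 579.5 with DLX5, and S100A10 becomes the largest slice.

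ANXA3 (chromosome 4, 78551519 to 78610451, plus strand), an annexin known from neutrophils, met the filter in each group and held 46.0, 53.1 and 50.7 CPM with DLX5 and 1.21, 1.86 and 1.16 CPM in control. It was 35.1-fold higher (log2 fold change 5.13 ± 0.14, edgeR adjusted p = 1.98e-21). ANXA8, an annexin of keratinocytes, held 2.04, 2.07 and 2.80 CPM with DLX5 and 0.268, 0.420 and 0 CPM in control, from 112 and 11 counts. Its ratio of scaled counts was 10.1 with a 95% binomial interval of 5.42 to 20.8, and the log2 fold change was 3.29 ± 0.46. Leaving out control replicate 2 gave 4.09, and leaving out control replicate 3 gave 2.70. ANXA8 has a close copy on the same chromosome, ANXA8L1, 99.4% identical over 2174 bases, and the value of each is uncertain for that reason. ANXA8L1 was also called higher (log2 fold change 2.50 ± 0.52), from 65 counts with DLX5 and 11 in control. Like ANXA8, it met the filter on low counts through the DLX5 libraries only.

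ANXA5, ANXA4, ANXA11 and ANXA6 rose by 2.24-fold or less. ANXA5, the phosphatidylserine binder used to stain dying cells, held 205.7, 236.5 and 223.7 CPM with DLX5 and 93.7, 104 and 99.8 CPM in control, a 2.24-fold rise (log2 fold change 1.16 ± 0.06). ANXA11, which tethers RNA granules to lysosomes, rose from 70.9 ± 2.29 to 135 ± 4.93 CPM, and ANXA4, an annexin of secretory epithelia, from 21.3 ± 1.95 to 40.8 ± 0.192 CPM (SD, n = 3). Their log2 fold changes were almost equal, at 0.93 ± 0.06 for ANXA11 and 0.94 ± 0.08 for ANXA4. ANXA6, a large annexin of endosomes and the plasma membrane, moved little, from 137.8 ± 5.98 to 161.5 ± 6.57 CPM. Its log2 fold change of 0.23 ± 0.06 passed (edgeR, adjusted p = 0.00197), but not in a test against a 1.5-fold change (adjusted p = 1).

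ANXA7 and ANXA9 did not pass. ANXA7, also called synexin and known for fusing secretory granules, held 57.8, 60.2 and 54.2 CPM with DLX5 and 53.1, 52.9 and 48.1 CPM in control. Its groups were adjacent without overlap, and at a log2 fold change of 0.16 ± 0.07 the edgeR adjusted p was 0.0579. It passed with at least 1 CPM in 3 libraries (adjusted p = 0.0493), with the replicate number as a block (adjusted p = 0.0406) and without DLX5 overexpression replicate 3 (adjusted p = 0.0387). ANXA9, an annexin that has lost the usual calcium sites, held 4.57, 6.13 and 6.21 CPM with DLX5 and 5.29, 4.68 and 4.93 CPM in control, with overlapping groups (log2 fold change 0.18 ± 0.17, adjusted p = 0.365). ANXA10 and ANXA13, annexins of the stomach and of the intestine and kidney, had 9 and 3 counts over all libraries and were not tested.

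In FPKM, which divide by the gene length in the file, the annexins of the control cells were led by ANXA5 (32.4 ± 1.68 FPKM), ANXA6 (25.2 ± 1.10), ANXA2 (19.9 ± 0.710) and ANXA7 (17.8 ± 0.980), and those of the DLX5 cells by ANXA2 (93.0 ± 3.59) and ANXA5 (72.5 ± 5.26, all SD, n = 3). ANXA2 made up 18.2% ± 0.467 of the summed annexin FPKM in control and 35.9% ± 0.457 with DLX5, while ANXA6 went from 23.2% ± 1.11 to 11.4% ± 0.0772. The order and the shares depend on the length used. With the median length of the annotated coding transcripts, a choice made after the data were seen, ANXA2 came first in control at 264 ± 9.63 CPM per kilobase, before ANXA6 (149 ± 6.49) and ANXA5 (72.7 ± 3.81). On that length ANXA2 made up 47.7% ± 1.07 of the annexin sum in control and 69.5% ± 0.367 with DLX5, and ANXA6 27.0% ± 1.37 and 9.83% ± 0.0383 (SD, n = 3). The share of ANXA2 was the larger with DLX5 on either length. The FPKM sum itself went from 106.8 to 110.7 FPKM in the controls up to 245.4 to 271.2 FPKM with DLX5. In counts, the 31 members together took 0.0658% ± 0.000963 of the control reads and 0.218% ± 0.00516 of the DLX5 reads (SD, n = 3).

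**Figure D4:**
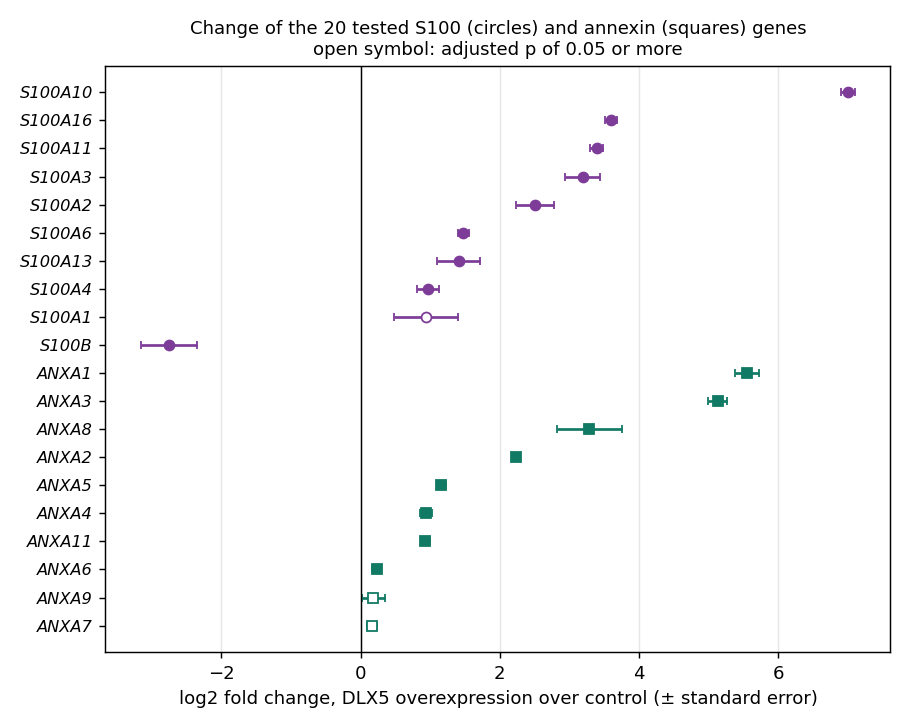
Log2 fold change with its standard error for the 20 tested members, circles for S100 genes and squares for annexins, with open symbols where the adjusted p was 0.05 or more. S100A10 stands alone at 7.0, S100B is on the negative side at -2.75, and the lowest annexins lie at 0.16 to 0.23.

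Most of the S100 genes share a chromosome. Of the 19, 15 lie on chromosome 1, 13 of them on the minus strand, and the other 4 elsewhere, while the 12 annexins are spread over 8 chromosomes. Among those 4, S100B alone had enough reads to be tested. The interval from the start of ANXA9 to the end of S100A1 (chromosome 1, 150982017 to 153632039) holds 16 members and 83 other protein-coding genes. Of the 10 members tested there, 8 rose and 0 fell, with a median log2 fold change of 1.99. Over all genes tested, 29.8% were higher and 28.8% lower. S100A1, S100A2 and S100A3, which are among these 10 members and in their median, met the filter through the DLX5 libraries only. Of the 31 other genes tested in the interval, 9 rose, 14 fell and 8 missed the threshold, and their median was -0.145. The difference between members and neighbours was not tested.

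Of the 30 other genes tested before S100A10, 8 rose, 14 fell and 8 missed the threshold. The nearest tested gene before it, THEM4, starts 109.3 kb lower on the chromosome and went from 24.3 to 19.3 CPM. Further off, the log2 fold change of LINGO4 was -3.81 ± 0.14. From S100A10 onward, all 9 S100 genes tested had positive log2 fold changes, but S100A1, S100A2 and S100A3 met the filter through the DLX5 libraries only. Other genes there give almost no comparison: of 49, 42 had 0 counts, and IVL, the gene of the keratinocyte envelope protein involucrin, was the only 1 tested. IVL rose from 0.127 ± 0.0703 to 4.74 ± 0.673 CPM, from 6 to 231 counts (log2 fold change 5.16 ± 0.37, edgeR adjusted p = 4.27e-12). With 6 counts in the controls, IVL too met the filter through the DLX5 libraries only. IVL, THEM4 and LINGO4 are named after their values were seen. The S100 fused-type genes of the same stretch (filaggrin and its relatives, which join an S100 domain to long repeats) had 0 of 7 members with enough reads to test.

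**Figure D5:**
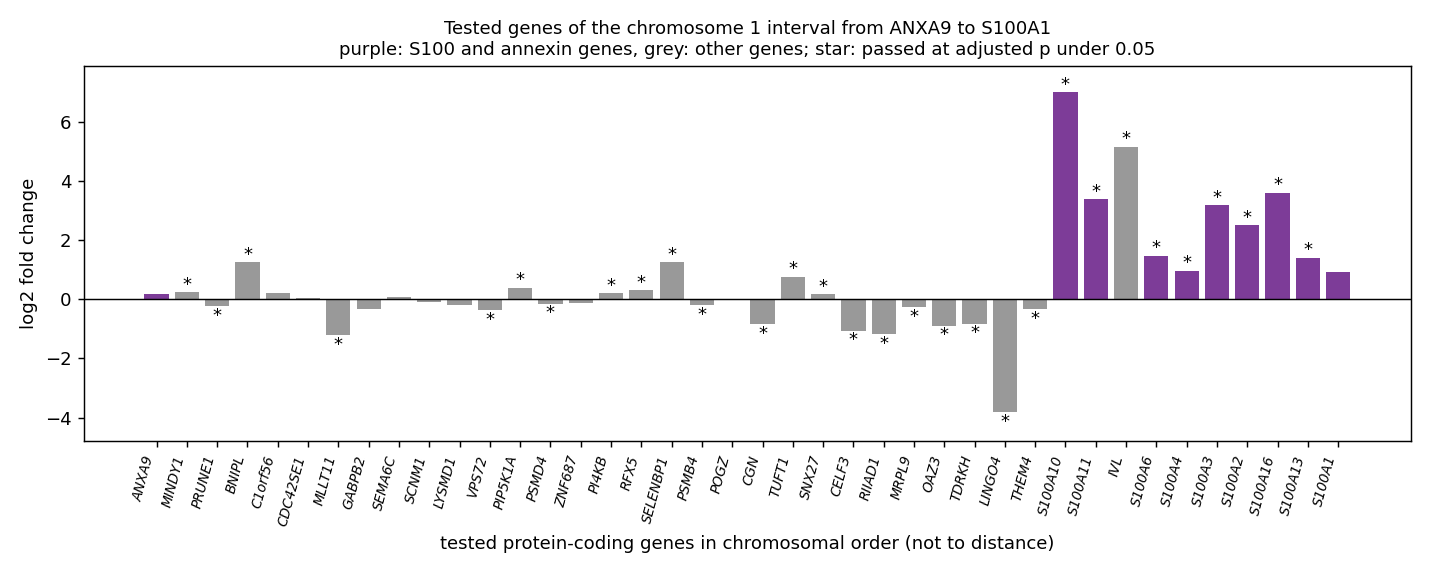
Log2 fold change of the tested protein-coding genes between ANXA9 and S100A1, with 1 gene left out, in chromosomal order, purple for S100 and annexin genes and grey for others, with a star where the gene passed. The bars before S100A10 point both ways, and those from S100A10 (7.0) onward point up. There, IVL (5.16) is the only gene outside the families that could be tested. S100A1, S100A2, S100A3 and IVL met the filter on low counts through the DLX5 libraries only, which favours upward bars for them.

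Promoter sequences, the 250 bases before the RefSeq start on GRCh38.p14, were found for 28 of the 31 members. The 3 without an entry are ANXA8, ANXA13 and S100B. They were searched for TAATTA, a core that homeobox factors such as DLX5 can bind, for TGANTCA, the AP-1 element, and for GGAATG on both strands, the TEAD element, where the first and the second read alike on both strands. TAATTA was found in 1 of 28 members, the untested S100G, and in 4.35% of 35116 promoters of the same length. TGANTCA was found in 4 of 28 (ANXA2, S100A2, S100A3 and S100A12), beside 6.57% of all promoters, and GGAATG in 1 of 28 (S100A16), beside 11.9%. A match is not a bound site, and no match speaks only of these letters in this window. The letters TATAAA on the coding strand, a search added after the data were seen, were found in 11 of 28 members and in 6.80% of all promoters. These 11 were the rising ANXA1, ANXA2, ANXA11 and S100A4 and 7 of the 10 untested members that have an entry.

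The stretches below are shown because they belong to members that rose and carry, or lack, TGANTCA or GGAATG, with matches in capitals. Bases that any annotated exon covers were left out, which left none of S100A10 and removed the TATAAA of ANXA1 and ANXA2. They are written 5′ to 3′ on the coding strand, from chr15:60398044-60398236 for ANXA2, chr1:153549373-153549508 for S100A3, chr1:153565866-153566094 for S100A2 and chr1:153613146-153613387 for S100A16 (all minus strand), and chr9:73151615-73151756 for ANXA1 (plus strand), in RefSeq's GRCh38.p14.
ANXA2: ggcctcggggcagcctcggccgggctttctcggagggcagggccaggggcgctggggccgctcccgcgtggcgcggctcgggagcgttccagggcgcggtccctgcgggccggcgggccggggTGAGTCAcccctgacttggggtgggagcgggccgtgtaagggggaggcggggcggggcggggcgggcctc
S100A3: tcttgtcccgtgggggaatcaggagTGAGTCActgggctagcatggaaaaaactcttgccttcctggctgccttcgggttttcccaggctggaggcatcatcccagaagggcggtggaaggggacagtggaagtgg
S100A2: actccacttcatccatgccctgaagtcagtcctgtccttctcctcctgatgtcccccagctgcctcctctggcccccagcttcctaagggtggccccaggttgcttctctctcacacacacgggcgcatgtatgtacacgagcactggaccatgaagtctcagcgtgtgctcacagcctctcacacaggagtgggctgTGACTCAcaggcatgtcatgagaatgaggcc
S100A16: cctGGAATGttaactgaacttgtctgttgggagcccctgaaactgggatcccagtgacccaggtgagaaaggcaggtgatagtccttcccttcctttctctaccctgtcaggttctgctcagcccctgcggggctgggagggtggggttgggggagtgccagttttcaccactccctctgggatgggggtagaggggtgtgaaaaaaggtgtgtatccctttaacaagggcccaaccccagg
ANXA1: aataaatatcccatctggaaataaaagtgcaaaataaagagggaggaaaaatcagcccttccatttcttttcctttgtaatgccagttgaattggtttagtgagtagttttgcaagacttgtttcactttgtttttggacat
The upstream windows of the members that rose were of unlike make-up. The 250 bases of ANXA2 held 28 CpG dinucleotides at 78.0% G and C, those of S100A10 held 24 at 71.2%, those of S100A16 held 1 at 57.2% and those of ANXA1 held 0 at 38.4%, beside medians of 11 and 58.0% over all promoters.

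Partners and receptors of the families were looked at from a list of 30 genes. Of 22 tested, 13 rose, 4 fell and 5 missed the threshold, and the median log2 fold change was 0.93. Over all genes tested, 29.8% were higher and 28.8% lower, with a median of -0.002. Besides AHNAK and DLC1, PLAU, the urokinase that activates plasminogen, went from 5.19 ± 0.977 to 41.7 ± 1.11 CPM, and TLR4, a receptor for S100A8 and S100A9, from 2.10 ± 0.232 to 19.3 ± 2.39 CPM (SD, n = 3). The 4 that fell include CACYBP, the calcyclin-binding protein that S100A6 binds (169.6 ± 6.75 to 109.0 ± 3.98 CPM), and KCNK3, a potassium channel that S100A10 binds (83.8 ± 2.25 to 37.5 ± 0.587 CPM), both named after their values were seen. ANXA2R, which is reported as an annexin A2 receptor, went from 4 to 67 counts. ANXA2R and another rising gene of the list, PLA2G4A, met the filter on low counts through the DLX5 libraries only. PLA2G4A is named after its values were seen. The formyl peptide receptors FPR1 and FPR2, through which annexin A1 signals, are at 0 counts in every library and FPR3 at 1 count or fewer in each, and are named after their values were seen too.

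Other EF-hand proteins did not move as a block. Of 38 tested from a list of 44, 19 rose, 12 fell and 7 missed the threshold, and their median was 0.185. Over all genes tested, 29.8% were higher and 28.8% lower, with a median of -0.002. KCNIP1, which rose, met the filter on low counts through the DLX5 libraries only. KCNIP3, which fell, met it through the controls only. Both are named after their values were seen. The actin cross-linkers ACTN4 and PLS3 rose by 1.91 ± 0.06 and 1.63 ± 0.06 on the log2 scale and EFHD2 from 49.7 ± 1.32 to 114.5 ± 0.728 CPM, whereas the neuronal calcium sensor HPCAL4 fell by 2.09 ± 0.08. Of the ferlins and copines, which bind phospholipids through C2 domains, 6 of 14 could be tested and 3 rose. Myoferlin (MYOF), a membrane repair protein, went from 6.86 ± 0.388 to 97.6 ± 7.08 CPM, CPNE1 rose by 0.57 ± 0.06 and CPNE4 by 1.30 ± 0.37. The groups of CPNE4 overlapped, and it met the filter on low counts through the DLX5 libraries only.

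Summed markers of fibroblasts, epithelium, Schwann cells and melanocytes, and endothelium were higher with DLX5. Those of myeloid cells were not, and single genes within the lists differed. Summed fibroblast markers went from 1320 to 1360 CPM in the controls to 4690 to 4860 CPM with DLX5 (9 genes, 7 of 8 tested higher, POSTN at 0). Most of this sum was COL3A1, which went from 1089 ± 17.0 to 4383 ± 77.3 CPM (SD, n = 3), and the other fibroblast markers summed to 243 to 262 CPM in the controls and 392 to 414 CPM with DLX5, with PDGFRA not passing. Summed epithelial markers went from 12.4 to 17.8 up to 37.3 to 42.1 CPM (9 genes, 3 of 6 tested higher and 1 lower, KRT5 at 0). Schwann cell and melanocyte markers summed to 6.64 to 9.11 CPM in the controls and 24.5 to 27.1 CPM with DLX5, with 4 of 5 tested higher and SOX10 too low to test. Endothelial markers summed to 1.21 to 1.52 and 2.32 to 3.43 CPM, with 1 of 3 tested higher, and 0 of 5 reached 1 CPM in either group. Over all genes tested, 29.8% were higher and 28.8% lower. CDH1, CLDN7 and PECAM1, all called higher, met the filter on low counts through the DLX5 libraries only. KRT19 and the adrenergic marker TH, both lower, met it through the controls only. The part of these markers in the results was not tested. Myeloid markers, which would accompany S100A8 and S100A9, summed to 1.88 to 2.22 CPM in control and 1.28 to 2.35 CPM with DLX5, and 0 of 8 reached 1 CPM in either group. The adrenergic markers summed to 3900 to 4330 CPM in the controls and 1550 to 1680 CPM with DLX5.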

How the data were processed

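Per the labels' protocols, RNA was taken with Trizol and NEBNext Ultra libraries were prepared. The authors deposited whole-number counts per gene and FPKM values for the same 6 libraries. The submitters' processing notes name HISAT2 2.0.5, featureCounts 1.5.0-p3 and hg19. Identifier, start and end of all 58735 genes in the table match GENCODE 29, so coordinates are given as GRCh38. The authors' FPKM, which rest on the gene length in the file, served for levels between genes, family sums and an alternative test.

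The test was edgeR 4.0.16 (R 4.3.3) on the counts as deposited. The filter filterByExpr left 17269 genes, TMM scaled the library sizes, and the quasi-likelihood test was two-sided, with Benjamini-Hochberg adjustment over all genes and no covariate. The biological coefficient of variation was 6.17%. A standard error was taken as the log2 fold change divided by the root of F, which may understate counting error at low counts. An exact permutation test of 3 against 3 cannot go below p = 0.1. Within groups, chi-square per degree of freedom between libraries was 2.23 to 5.07, more than sampling noise, so none was taken for a copy.

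The code was tested on simulated data. Protein sequences were not analysed here, and 1 gene of the chromosome 1 interval is counted but not reported here. Every member is accounted for. Of each related list up to 4 genes with the smallest adjusted p are named, beside genes that share a member's symbol stem (ANXA2R, ANXA2P2, ANXA8L1) and genes said to be named after their values were seen. The members and lists were chosen with earlier results of these data known. Alternatives used DESeq2 1.42.0 and limma 3.58.1, and figures matplotlib 3.10.9. Sequence identity was computed with edlib 1.3.9.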

Additional observations from a re-analysis of the deposited data

How the results depend on the processing

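The count of members that rose stayed at 15 to 17 and that of members that fell at 1 under every alternative tried: RLE and upper-quartile factors, DESeq2, limma-voom, no filter, the replicate block, a minimum of 1 CPM in 3 libraries, a fit of protein-coding genes alone, log2(FPKM + 1) and log2(FPKM + 0.1) values, an adjusted p under 0.01, each library left out, and, added after the data were seen, unscaled library sizes and a threshold of 1.5-fold in the test itself. This last, a stricter test by construction, lowered the count over all genes from 10121 to 3284. With each library left out, that count was 9277 to 9841 and the count of rising members 16 to 17. With the replicate number as a block, 10224 genes passed and 17 members rose, ANXA7 being the addition. Same-numbered libraries correlated by 0.007, 0.094 and -0.040 in their deviations from the group means, so the numbers were not taken to pair them. No member reversed. ANXA6 lost its call, and ANXA7 and S100A1 gained theirs, only where the text says so. On log2(FPKM + 1) values low members shrink by construction: ANXA1 stood at 3.33, ANXA3 at 3.07, S100A3 at 2.16, S100A2 at 1.32, S100B at -0.96, S100A13 at 0.54 and ANXA8 at 0.48, all still past the threshold. Without scaling factors the median of all genes was -0.07, and 44.2% of the calls were rises, against 50.9%. ANXA8 (112 counts with DLX5 and 11 in control) and S100B (14 with DLX5 and 96 in control) are limited by depth.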
